A study of Homo sapiens with 12 samples.

Results

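The 10 genes described here encode receptor tyrosine kinases for growth factors: PDGFRA and PDGFRB, FGFR1 to FGFR4, KIT, MET, EGFR and AXL. They were chosen by name, with earlier results of these data known. Each matched 1 of the 57820 gene identifiers in the deposited tables, so that 10 of 10 were found. RNA sequencing was done on G401, an established human malignant rhabdoid tumour cell line with the genotype SMARCB1(-/-). Doxycycline switched on either GFP, which served as control, or SMARCB1, and cells then spent 24 h in the solvent DMSO or in dBRD9-A, a compound that degrades BRD9 protein. The 4 groups were GFP cells in DMSO, GFP cells in dBRD9-A, SMARCB1 cells in DMSO and SMARCB1 cells in dBRD9-A, with 3 libraries each, and all 12 libraries shared the SMARCB1-null background and the doxycycline. The length of the induction, the vector, whether the lines were clones or pools, and whether replicates were separate cultures are not given in the sources used here. P-values then measure only the spread between these samples, which may be technical.

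Receptor tyrosine kinases cross the plasma membrane, and binding of a growth factor brings receptor chains together so that they phosphorylate each other on tyrosines. Adaptor proteins dock on these sites and pass the signal to the RAS-MAPK, PI3K and phospholipase C pathways, until ubiquitin ligases, phosphatases and feedback inhibitors end it. PDGF and FGF receptors are known as dependencies of rhabdoid tumour cell lines. SMARCB1 is a core subunit of the canonical and PBAF forms of the SWI/SNF chromatin remodelling complex, and BRD9 belongs to the non-canonical form, which holds no SMARCB1.

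The libraries held 34.97 to 58.54 megacounts assigned to genes. Levels are in CPM, that is counts per megacount, on library sizes scaled by TMM, the trimmed mean of M values. SMARCB1 itself, which checks the labels, ranged from 0 to 2 counts over the 6 GFP libraries and from 53033 to 110893 counts over the 6 SMARCB1 libraries. In GFP cells BRD9 RNA averaged 38.3 CPM in DMSO and 41.1 CPM in dBRD9-A (edgeR adjusted p = 0.146), but a degrader acts on the protein, so that this level does not check the treatment. VIM, KRT8 and KRT18, which mark rhabdoid cells, had at least 45667 counts in every library. PTPRC and CD3E, which define leukocytes, were at 0 in all 12 libraries, whereas CD68 had 2277 counts or more and gave nearly all of the summed level of the 4 haematopoietic markers. That sum was 163.1 to 175.2 CPM in GFP cells and 57.4 to 60.8 CPM in SMARCB1 cells in DMSO, and 181.3 to 198.8 CPM and 63.4 to 67.2 CPM in dBRD9-A. Of the 4 stromal markers, DCN and LUM had at most 1 count, but COL3A1 (33451 to 72010 counts) and COL1A1 (2720 to 15441 counts) were abundant. COL1A1 averaged 257 CPM in GFP cells and 95.2 CPM in SMARCB1 cells in DMSO (-1.43, edgeR adjusted p = 8.46e-15) and fell with dBRD9-A in GFP cells as well (-0.53, and -0.17 with spike-ins), while COL3A1 rose with SMARCB1 in DMSO (0.44). UMOD of the kidney epithelium was at 0, AQP1 had 6.46 to 43 counts, and the summed level of the list was 0.259 to 0.533 CPM in GFP cells and 0.499 to 1.18 CPM in SMARCB1 cells in DMSO. The 2 endothelial markers summed to 0.0173 to 0.121 CPM and 0.68 to 1.07 CPM in the same groups. The part of any of these in the receptor changes was not tested. Chi-square values per degree of freedom between replicates ran from 3.02 to 26.3, above the sampling noise of 1, with the highest between the SMARCB1 libraries in dBRD9-A numbered 2 and 3.

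FGFR2 was the most abundant of the 10 receptor RNAs in all 4 groups when levels were divided by the length of the merged exons in GENCODE release 29. In GFP cells in DMSO, FGFR2 stood at 59.6 ± 0.685 CPM per kilobase (SD, n = 3), followed by FGFR1 at 19.8 ± 0.201. PDGFRB at 10.6 ± 0.621 CPM per kilobase was not separated from PDGFRA, whose libraries ran from 9.95 to 10.1. EGFR at 6.45, AXL at 5.63, FGFR4 at 3.05 and FGFR3 at 1.85 CPM per kilobase came next, and the libraries of neighbours in this order did not overlap. MET at 0.0691 and KIT at 0.0427 CPM per kilobase were close to the bottom of the scale and overlapped. In SMARCB1 cells in DMSO the order was FGFR2 (46.7), AXL (30.8), FGFR1 (28.3), PDGFRB (11.8), EGFR (7.98), FGFR3 (4.45), FGFR4 (2.89), MET (1.72), PDGFRA (1.03) and KIT (0.0108 CPM per kilobase), with no overlap between neighbours. The places of AXL and FGFR1, and those of PDGFRA and PDGFRB in GFP cells in DMSO, turned over when the longest coding transcript was used as the length. RNA from a bulk culture cannot tell fewer expressing cells from less RNA per cell.

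**Figure D1:**
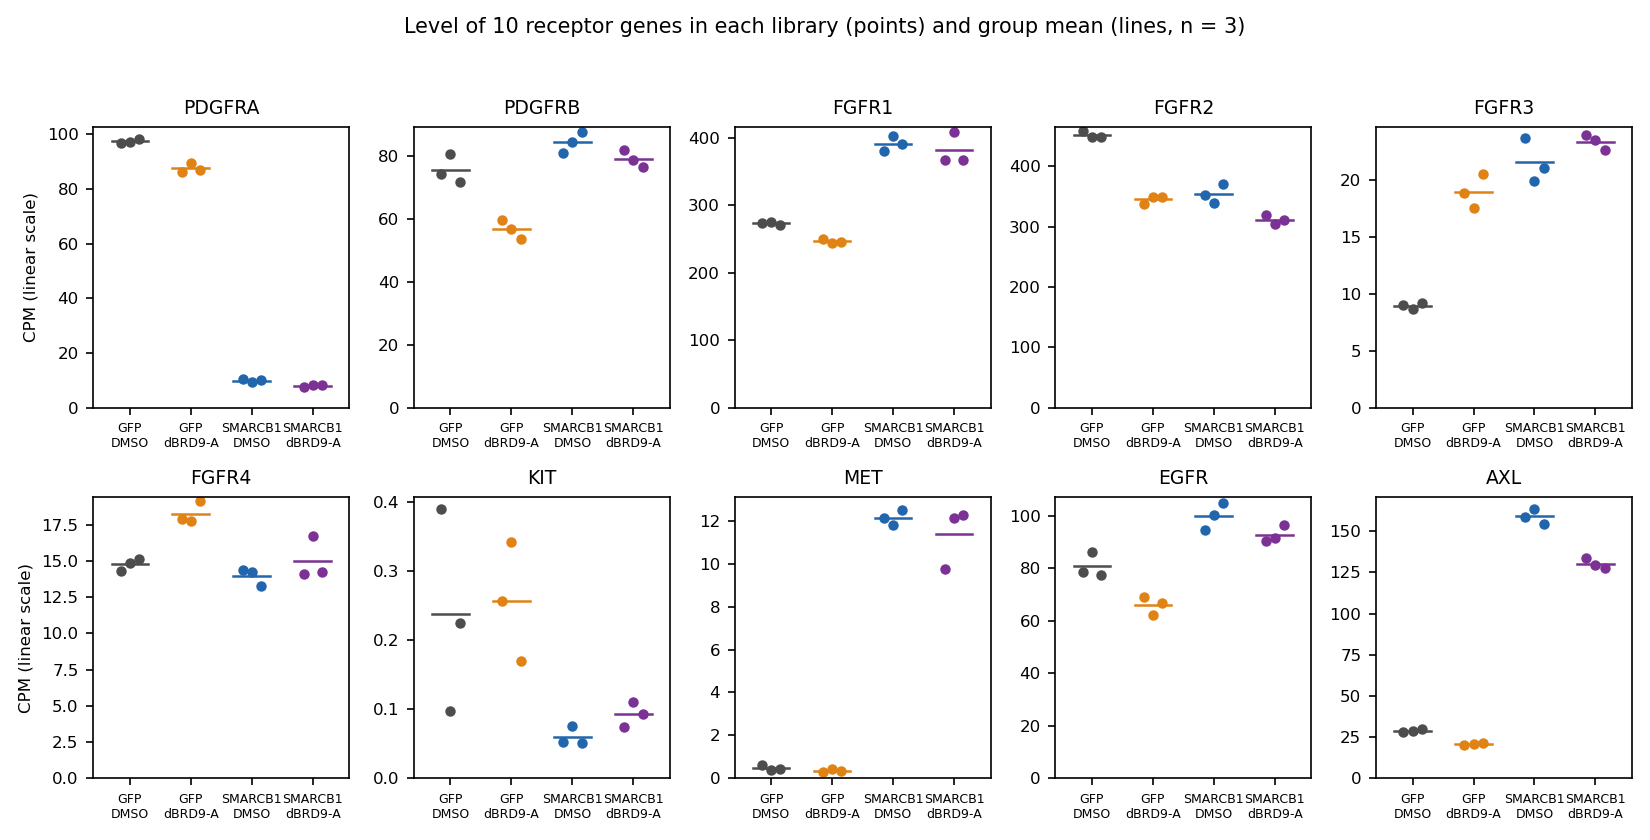
Level in CPM (linear axes from 0, a separate range per gene) of the 10 receptor RNAs in each of the 12 libraries; points are libraries and lines are means of 3. PDGFRA falls from 96.8 to 98.3 CPM in GFP cells in DMSO to 9.42 to 10.4 CPM in SMARCB1 cells in DMSO, MET and AXL rise, and FGFR3 is low in GFP cells in DMSO but not in the other 3 groups.

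Changes were tested with edgeR's quasi-likelihood test over 15750 genes, and a gene was called at a Benjamini-Hochberg adjusted p under 0.05. SMARCB1 in DMSO called 9 of the 10 receptors, 6 higher and 3 lower, where 65% of all genes tested were called, 33.5% higher and 31.6% lower. With dBRD9-A present in both arms, SMARCB1 called all 10, 6 higher and 4 lower, against a background of 63.3%, 33% higher and 30.4% lower. In GFP cells dBRD9-A called 8 of 10, 2 higher and 6 lower, where the background was 15.9%, 7.43% higher and 8.47% lower. In SMARCB1 cells dBRD9-A called 3 of 10, all lower, where it was 1.93%, 0.679% higher and 1.25% lower. The difference between these last changes, dBRD9-A in SMARCB1 cells minus dBRD9-A in GFP cells, was called for 4 of 10, 3 higher and 1 lower, against 3.8%, 2.15% higher and 1.65% lower. Most of the receptors had high counts, and deeply counted genes are called more often. Among the 8999 genes with a mean of at least 500 counts, these 5 comparisons called 75.2%, 73.5%, 21.4%, 2.64% and 5.68%, and of the 8 receptors above that mean they called 7, 8, 8, 3 and 4.

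Library scaling bears on the smaller changes. Scaling to synthetic ERCC spike-in RNAs in place of TMM moved the median of all genes by 0.17 (log2) for SMARCB1 in DMSO, 0.36 for dBRD9-A in GFP cells, -0.14 for dBRD9-A in SMARCB1 cells, -0.32 for SMARCB1 with dBRD9-A and -0.49 for the difference between the dBRD9-A changes. How the spike-ins were added is not given in the sources used here, so that it is not known whether they track cell number or RNA mass. Over all genes, SMARCB1 in DMSO called 5271 higher and 4974 lower with TMM and 6831 higher and 2581 lower with spike-ins, and dBRD9-A in GFP cells called 1170 and 1334 with TMM and 11083 and 227 with spike-ins. For dBRD9-A in SMARCB1 cells the split was 107 higher and 197 lower with TMM and 39 and 834 with spike-ins, and for SMARCB1 with dBRD9-A it was 5191 and 4784 with TMM and 2129 and 9046 with spike-ins. The difference between the dBRD9-A changes gave 338 higher and 260 lower with TMM, and 66 and 11204 with spike-ins. Directions given for receptors are relative to the median gene unless spike-ins are named.

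**Figure D2:**
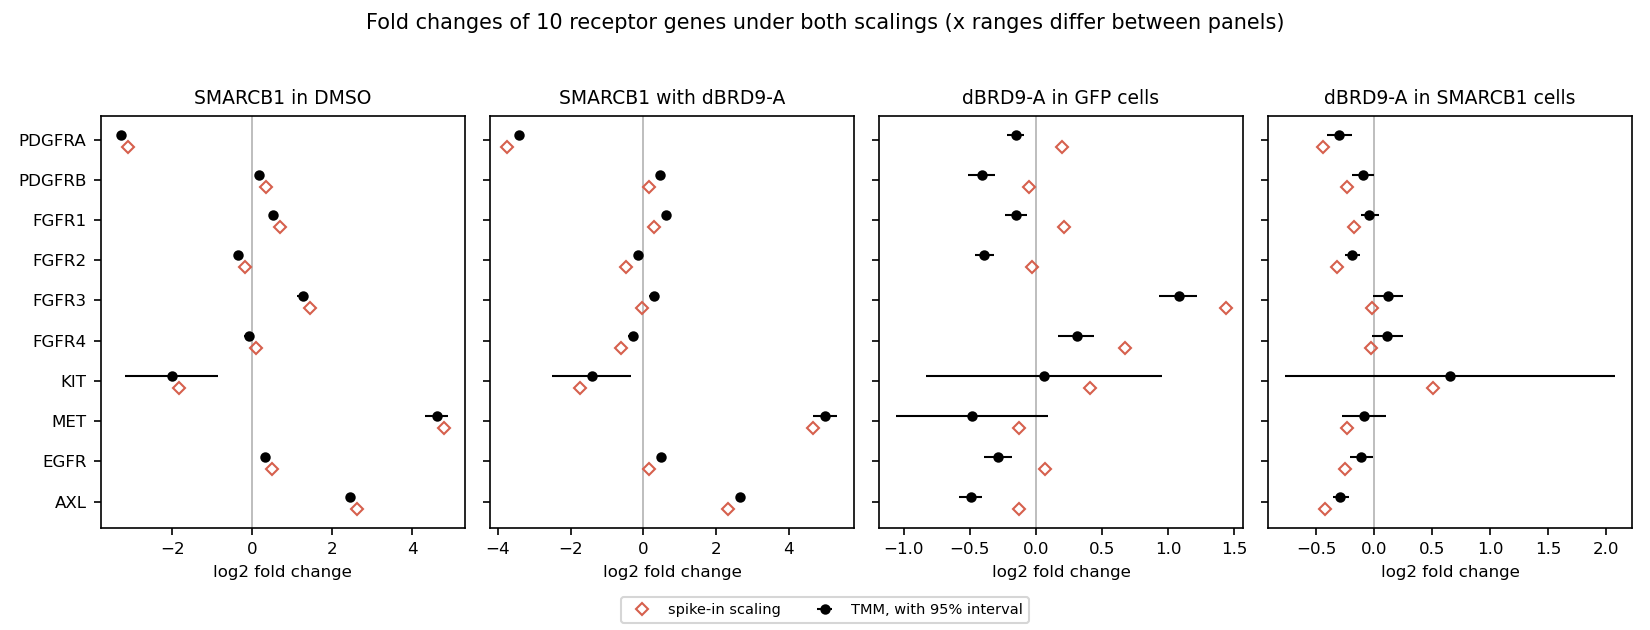
Log2 fold changes of the 10 receptors in 4 comparisons (x axes, ranges differ) with TMM scaling (black, bars are 95% intervals) and with spike-in scaling (open diamonds). PDGFRA, MET and AXL keep large changes with SMARCB1 under both scalings, whereas in GFP cells with dBRD9-A the falls of PDGFRA, FGFR1 and EGFR turn to values of 0.20, 0.21 and 0.07 with spike-ins, and only FGFR3 and FGFR4 are called higher under both.

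PDGFRA (ENSG00000134853.7), the receptor for PDGF-A and other PDGF dimers, fell with SMARCB1. It stood at 96.8, 97.2 and 98.3 CPM in GFP cells in DMSO and at 10.4, 9.42 and 10.2 CPM in SMARCB1 cells in DMSO. The groups lay far apart, and the log2 fold change was -3.29 (SE 0.04, edgeR adjusted p = 1.16e-20), a level 9.75-fold lower. In dBRD9-A the values were 86.2, 89.4 and 87.1 CPM in GFP cells and 7.73, 8.28 and 8.28 CPM in SMARCB1 cells, and the change was -3.43 (SE 0.04). The fall was thus seen with and without the degrader, and it was -3.11 and -3.76 with spike-ins. In GENCODE release 29, PDGFRA overlaps AC058822.1, a protein-coding model on the same strand. Of the 12 expected counts of PDGFRA, 2 were not whole, so that RSEM divided some reads between genes. The annotation counted is not given in the sources used here, and whether AC058822.1 received any of these reads was not tested.

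PDGFRB (ENSG00000113721.9), which binds mainly PDGF-B and PDGF-D, did not follow PDGFRA. Its level was 74.2, 80.4 and 71.8 CPM in GFP cells in DMSO and 80.9, 84.3 and 87.5 CPM in SMARCB1 cells in DMSO. The groups were next to each other without overlap, and the log2 fold change was 0.16 (SE 0.05, edgeR adjusted p = 0.0045), a 1.12-fold difference. With dBRD9-A in both arms it was 0.47 (SE 0.05, adjusted p = 9.89e-08), which fell short of a call with spike-ins (0.15, adjusted p = 0.0645). The balance of the PDGF receptors within a library does not depend on library scaling. PDGFRA made up 48.7% ± 1.57 of the reads per kilobase of the pair in GFP cells in DMSO and 8.0% ± 0.526 in SMARCB1 cells in DMSO (SD, n = 3). It made up 53.1% ± 1.55 in GFP cells in dBRD9-A and 7.01% ± 0.476 in SMARCB1 cells in dBRD9-A. All 3 libraries of each SMARCB1 group lay below all 3 of the matching GFP group, with an exact two-sided permutation p of 0.1, the smallest that 3 against 3 allows (0.111 after Benjamini-Hochberg adjustment over 20 such tests).

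FGFR1 (ENSG00000077782.15), a receptor for many FGFs including FGF2, rose with SMARCB1. It stood at 275, 276 and 270 CPM in GFP cells in DMSO and at 381, 403 and 391 CPM in SMARCB1 cells in DMSO. No libraries overlapped, and the log2 fold change was 0.52 (SE 0.04, edgeR adjusted p = 7.18e-10). With dBRD9-A in both arms it was 0.63 (SE 0.04, adjusted p = 5.88e-11), and both values stayed called with spike-ins, at 0.69 and 0.30. In GENCODE release 29, 2 models on the same strand and 2 on the opposite strand overlap FGFR1, and the use of strand in counting is not given in the sources used here.

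FGFR2 (ENSG00000066468.16), whose splice forms differ in the FGFs they bind, was lower in all 3 other groups than in GFP cells in DMSO with TMM scaling. GFP cells had 458, 449 and 449 CPM in DMSO and 338, 348 and 349 CPM in dBRD9-A. SMARCB1 cells had 353, 339 and 370 CPM in DMSO and 319, 304 and 311 CPM in dBRD9-A. GFP cells in DMSO stood above every other library, and the middle groups overlapped each other. The log2 fold change was -0.35 (SE 0.03, edgeR adjusted p = 2.36e-08) for SMARCB1 in DMSO and -0.15 (SE 0.03, adjusted p = 0.00053) for SMARCB1 with dBRD9-A, and both kept their sign and call with spike-ins (-0.18 and -0.48).

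FGFR3 (ENSG00000068078.13), an FGF receptor known from cartilage and epithelia, rose with dBRD9-A in GFP cells and with SMARCB1 in DMSO. GFP cells had 9.07, 8.68 and 9.19 CPM in DMSO and 18.9, 17.6 and 20.5 CPM in dBRD9-A. The level was 23.7, 19.96 and 21.1 CPM in SMARCB1 cells in DMSO. The control libraries lay below all of these, and the log2 fold change was 1.08 (SE 0.07, edgeR adjusted p = 7.41e-09) with dBRD9-A and 1.26 (SE 0.07, adjusted p = 1.89e-11) with SMARCB1. These comparisons share the 3 control libraries. In SMARCB1 cells, where the level was already 21.6 ± 1.93 CPM (SD, n = 3), dBRD9-A gave 24.0, 23.5 and 22.7 CPM, which overlapped the DMSO libraries. That change was 0.12 on the log2 scale (95% interval -0.01 to 0.25, adjusted p = 0.457). With dBRD9-A in both arms, the SMARCB1 change was 0.30 (SE 0.06, adjusted p = 0.000452) with TMM and -0.03 (adjusted p = 0.779) with spike-ins.

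FGFR4 (ENSG00000160867.10), the receptor for FGF19 in the liver, was not called for SMARCB1 in DMSO. Its level was 14.3, 14.8 and 15.2 CPM in GFP cells and 14.4, 14.2 and 13.3 CPM in SMARCB1 cells, both in DMSO. These libraries overlapped, and the 95% interval of the log2 fold change ran from -0.22 to 0.05 (adjusted p = 0.277). In GFP cells in dBRD9-A it stood at 17.9, 17.8 and 19.1 CPM, above every control library, and the change of 0.31 (log2, SE 0.06, adjusted p = 0.00267) was 0.67 with spike-ins. With dBRD9-A in both arms FGFR4 was called lower with SMARCB1, at -0.28 (SE 0.06, adjusted p = 0.00112), or -0.61 with spike-ins.

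The share of each FGF receptor in the reads per kilobase of the 4 genes does not depend on scaling between libraries. The 4 shares of a library make up a whole, so that a fall in 1 raises the others and they are not independent. FGFR1's share was thus higher with dBRD9-A in GFP cells, although FGFR1 was called lower there with TMM (-0.15). Shares also depend on the merged-exon length, 13.8 kilobases for FGFR1 against 6.05 for its longest coding transcript. FGFR2 made up 70.7% ± 0.248 in GFP cells in DMSO, 64.1% ± 0.677 in GFP cells in dBRD9-A, 56.7% ± 1.39 in SMARCB1 cells in DMSO and 53.7% ± 1.94 in SMARCB1 cells in dBRD9-A (SD, n = 3). FGFR1 made up 23.4% ± 0.22, 25.1% ± 0.544, 34.4% ± 1.41 and 36.0% ± 1.69 in the same order. FGFR3 made up 2.2% ± 0.0663, 5.51% ± 0.381, 5.41% ± 0.486 and 6.3% ± 0.141, so that its smallest share in any library outside the controls exceeded its largest share within them. FGFR4 made up 3.62% ± 0.139, 5.32% ± 0.155, 3.52% ± 0.216 and 4.06% ± 0.329. For FGFR2 and FGFR3 the groups did not overlap in any of the 4 pairwise comparisons, each with the smallest exact permutation p that 3 against 3 allows, 0.1 (0.111 adjusted over 20 tests). FGFR4 shares for SMARCB1 in DMSO and FGFR1 shares for dBRD9-A in SMARCB1 cells overlapped, with exact p of 0.5 and 0.3.

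**Figure D3:**
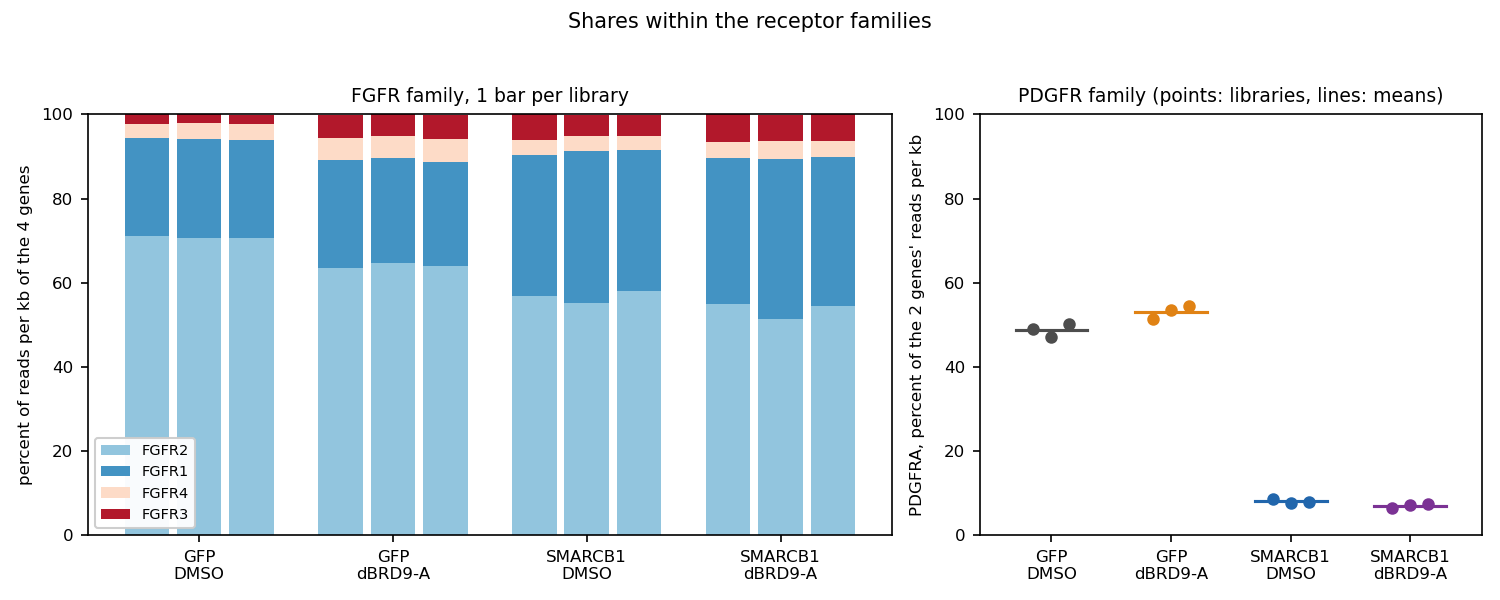
Left, the percent of reads per kilobase of FGFR1 to FGFR4 that belongs to each gene, 1 bar per library; right, PDGFRA as a percent of PDGFRA and PDGFRB, points being libraries and lines means of 3. FGFR3 makes up 2.2% in GFP cells in DMSO and 5.41% to 6.3% in the other groups on average, and PDGFRA drops from 48.7% to 8.0% with SMARCB1 in DMSO.

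AXL (ENSG00000167601.7), the receptor for GAS6 and a known marker of mesenchymal states, rose with SMARCB1. It stood at 28.0, 28.98 and 30.1 CPM in GFP cells in DMSO and at 159, 164 and 155 CPM in SMARCB1 cells in DMSO. The log2 fold change was 2.45 (SE 0.03, edgeR adjusted p = 1.16e-19), a 5.48-fold rise, and 2.66 (SE 0.04) with dBRD9-A in both arms. With spike-ins these were 2.62 and 2.33. AC011510.1, on the opposite strand, overlaps AXL in GENCODE release 29.

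MET (ENSG00000105976.10), the receptor for hepatocyte growth factor, had the largest change of the 10 genes with SMARCB1. The counts were 35, 16 and 26 in GFP cells in DMSO, or 0.621, 0.388 and 0.449 CPM, and 463, 468 and 727 in SMARCB1 cells in DMSO, or 12.1, 11.8 and 12.5 CPM. GFP cells held little MET RNA, beside a floor of 3 counts that comes to 0.0513 to 0.0858 CPM. The log2 fold change was 4.61 (SE 0.14, edgeR adjusted p = 4.8e-15), a 24.4-fold rise, and 5.01 (SE 0.16) with dBRD9-A in both arms. Under spike-in scaling the values were 4.79 and 4.68. HGF, its ligand, ranged from 0 to 4 counts per GFP library and from 23 to 52 counts per SMARCB1 library in DMSO, and it passed the count filter only through the SMARCB1 groups.

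EGFR (ENSG00000146648.11), the receptor for EGF and related ligands, changed little. It stood at 78.6, 86.2 and 77.4 CPM in GFP cells in DMSO and at 94.7, 100.1 and 105 CPM in SMARCB1 cells in DMSO. The groups did not overlap, with a log2 fold change of 0.31 (SE 0.05, edgeR adjusted p = 1.41e-05), or 0.48 with spike-ins. With dBRD9-A in both arms it was 0.49 (SE 0.05) with TMM and 0.16 with spike-ins (adjusted p = 0.0524). EGFR-AS1 lies on the opposite strand of EGFR in GENCODE release 29.

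KIT (ENSG00000157404.11), the receptor for stem cell factor, was close to the floor and passed the count filter only through the GFP groups, where it is higher, so that its calls carry little weight in the counts of 9 and 10 receptors. Counts were 22, 4 and 13 in GFP cells in DMSO and 2, 3 and 3 in SMARCB1 cells in DMSO. Over the summed counts, 39 against 8, the ratio of GFP to SMARCB1 was 4.28 (95% counting interval 1.97 to 10.6, counting error only), and the edgeR adjusted p was 0.00359. With dBRD9-A in both arms, summed counts of 30 and 13 gave a ratio of 2.78 (1.41 to 5.81, adjusted p = 0.0227). That call was lost without replicate 2 of GFP cells in dBRD9-A (adjusted p = 0.0988), without replicate 1 of SMARCB1 cells in dBRD9-A (0.0616) and with DESeq2 (0.0618). KITLG, the gene of stem cell factor, had 0 to 5 counts in each GFP library in DMSO.

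With dBRD9-A in GFP cells the median size of the log2 change over the 10 receptors, regardless of sign, was 0.348 with TMM, above the 0.0949 over all genes tested, and 0.168 with spike-ins, below the 0.367 over all genes. FGFR3 changed most under either scaling. In GFP cells and relative to the median gene, AXL fell by 0.49 (SE 0.04, edgeR adjusted p = 1.28e-07), PDGFRB fell by 0.41 (SE 0.05, adjusted p = 8.32e-06) and FGFR2 fell by 0.39 (SE 0.03, adjusted p = 1.25e-07) on the log2 scale, but with spike-ins these were -0.13, -0.05 and -0.03 and none was called. EGFR (-0.29, adjusted p = 0.000455), PDGFRA (-0.15, adjusted p = 0.00248) and FGFR1 (-0.15, adjusted p = 0.00887) were called lower with TMM, but with spike-ins they turned to 0.07, 0.20 and 0.21, the last 2 called higher. The count of receptors called was thus 2 higher and 6 lower with TMM and 4 higher and 0 lower with spike-ins (FGFR3, FGFR4, PDGFRA and FGFR1). Of all genes tested, 7.43% were called higher and 8.47% lower with TMM, and 70.4% higher and 1.44% lower with spike-ins. The 4 rises among 10 receptors thus lie below the share of all genes. AXL had 20.03, 20.8 and 21.1 CPM and PDGFRB 59.7, 56.9 and 53.5 CPM in GFP cells in dBRD9-A, in each case below every control library. MET (-0.48, 95% interval -1.06 to 0.09) and KIT (0.06, -0.83 to 0.95) had too few counts in GFP cells for a change of that size to be resolved.

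In SMARCB1 cells, dBRD9-A lowered 3 receptors. AXL went from 159, 164 and 155 CPM to 134, 130 and 128 CPM (log2 fold change -0.29, SE 0.03, edgeR adjusted p = 4.2e-05). PDGFRA went from 10.4, 9.42 and 10.2 CPM to 7.73, 8.28 and 8.28 CPM (-0.30, SE 0.05, adjusted p = 0.00309), a call lost when only the 6 SMARCB1 libraries were fitted (adjusted p = 0.0804). FGFR2 fell by 0.19 (SE 0.03, adjusted p = 0.00351). With spike-ins these 3 were -0.42, -0.44 and -0.32 and stayed called, and EGFR was called as well (-0.25, adjusted p = 0.0412). SMARCB1 RNA was itself lower in these libraries, at 1276 to 1327 CPM with dBRD9-A against 1806 to 1911 CPM in DMSO, and its part in these changes was not tested.

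The dBRD9-A change differed between the cell states for FGFR3. The difference, SMARCB1 cells minus GFP cells, was -0.96 on the log2 scale (SE 0.09, 95% interval -1.15 to -0.76, edgeR adjusted p = 7.04e-06), and -1.46 with spike-ins. The differences of PDGFRB (0.31, SE 0.07, adjusted p = 0.01), FGFR2 (0.20, SE 0.04, adjusted p = 0.0142) and AXL (0.21, SE 0.05, adjusted p = 0.0301) were called higher with TMM, but turned to -0.18, -0.29 and -0.29 with spike-ins. FGFR2 lost its call without replicate 1 of GFP cells in dBRD9-A (adjusted p = 0.0513). AXL lost it without any single one of 7 libraries, with adjusted p from 0.0515 to 0.108: replicates 2 and 3 of GFP cells in DMSO, 1 and 3 of SMARCB1 cells in DMSO, 1 and 2 of GFP cells in dBRD9-A and 1 of SMARCB1 cells in dBRD9-A. FGFR4 gained one without replicate 2 of SMARCB1 cells in dBRD9-A (-0.28, adjusted p = 0.043), against -0.19 (adjusted p = 0.307) with all libraries.

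**Figure D4:**
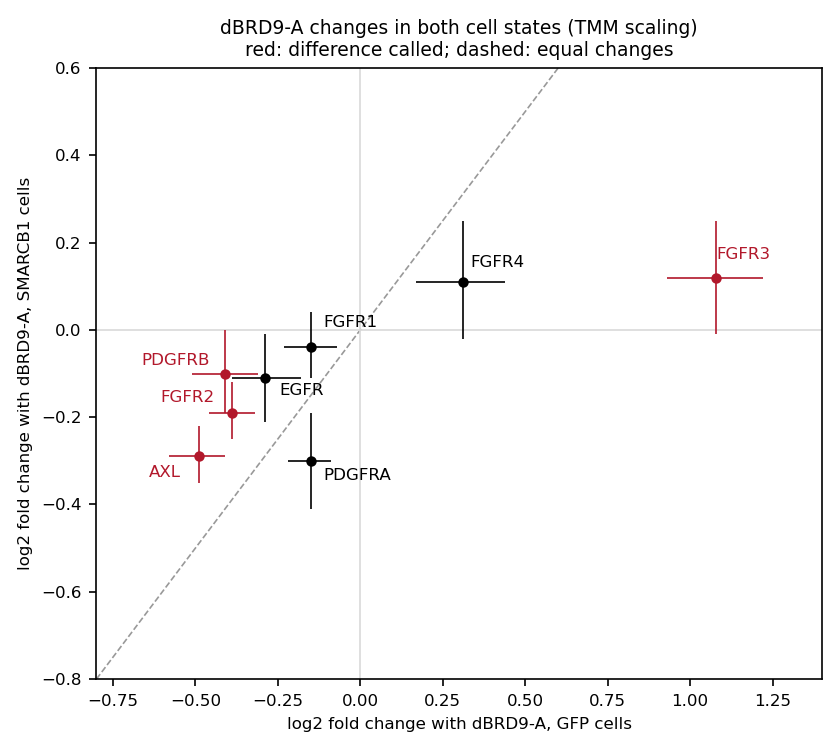
Log2 fold change with dBRD9-A in GFP cells (x axis) and in SMARCB1 cells (y axis), which share no library, for the 8 receptors with the higher counts; bars are 95% intervals, red marks a called difference and the dashed line marks equal changes. FGFR3 lies far to the right, at 1.08 in GFP cells and 0.12 in SMARCB1 cells. With spike-in scaling the differences of PDGFRB, FGFR2 and AXL turn negative, and that of PDGFRB is no longer called.

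The start regions of 4 of the 5 receptors whose log2 fold change with SMARCB1 in DMSO was over 1 in size are shown because they differ in base composition. KIT, the other one, is left out for its low counts, and its window had 76.4% G and C, 34 CpG dinucleotides and 1 GC box. RefSeq's promoter table, on GRCh38.p14, held windows for 9 of the 10 genes. Each line gives the 250 bases before the start, 5′ to 3′ on the gene's strand, for PDGFRA (chr4:54229043-54229292), FGFR3 (chr4:1793043-1793292), MET (chr7:116671946-116672195) and AXL (chr19:41218973-41219222), all on the plus strand. Capitals mark the GC box GGGCGG, on either strand, and TGANTCA, a loosened AP-1 motif in which N is any base. They do not overlap each other here.
PDGFRA: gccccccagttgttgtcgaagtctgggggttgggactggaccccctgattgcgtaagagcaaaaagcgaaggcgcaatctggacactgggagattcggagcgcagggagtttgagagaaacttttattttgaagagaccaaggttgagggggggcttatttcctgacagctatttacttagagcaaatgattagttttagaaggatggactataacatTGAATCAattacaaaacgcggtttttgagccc
FGFR3: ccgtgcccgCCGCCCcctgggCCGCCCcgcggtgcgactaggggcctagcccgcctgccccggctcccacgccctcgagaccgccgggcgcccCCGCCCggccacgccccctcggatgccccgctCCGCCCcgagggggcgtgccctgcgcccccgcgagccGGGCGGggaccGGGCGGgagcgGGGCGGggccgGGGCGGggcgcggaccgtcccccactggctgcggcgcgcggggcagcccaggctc
MET: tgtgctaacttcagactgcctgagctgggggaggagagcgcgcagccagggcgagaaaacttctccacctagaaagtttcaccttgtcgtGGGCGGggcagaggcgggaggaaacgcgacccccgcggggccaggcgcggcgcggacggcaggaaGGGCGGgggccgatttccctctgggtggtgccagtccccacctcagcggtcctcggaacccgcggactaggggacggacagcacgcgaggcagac
AXL: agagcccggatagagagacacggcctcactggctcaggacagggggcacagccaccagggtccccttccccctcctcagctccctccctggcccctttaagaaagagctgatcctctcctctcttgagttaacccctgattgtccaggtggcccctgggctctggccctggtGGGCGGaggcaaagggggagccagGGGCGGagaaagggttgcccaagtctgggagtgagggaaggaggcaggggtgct
PDGFRA's window was the poorest in G and C of the 9, at 46.8%, with 8 CpG dinucleotides and no GC box. It held 1 match to TGANTCA, which reads TGAATCA and is not the stricter AP-1 motif with C or G at N. FGFR3's had 86.8% G and C, 40 CpG dinucleotides and 8 GC boxes. MET's (68.4%, 24 CpG) and AXL's (64.4%, 4 CpG) each had 2 GC boxes. The median over all 35116 windows of the same length was 58.0% G and C and 11 CpG dinucleotides, 42.6% of windows held a GC box and 6.6% held TGANTCA. None of the 9 windows held TATAAA or GGAATG, which 10.7% and 11.9% of all windows hold on either strand. PDGFRA, AXL, FGFR4 and EGFR each have a second window in the table, not used here. FGFR2 has 5 windows, none at the start of its gene in RefSeq, and the first was used. A match is a string of letters, and binding was not measured.

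Of 33 ligand genes, 15 passed the count filter. SMARCB1 in DMSO called 10 of them higher and 4 lower, where 33.5% of all genes were called higher and 31.6% lower. Their median log2 fold change was 0.95, where the median of all genes was near 0. A gene that passed the filter through 1 group had to differ, so that these counts describe the list only. PDGFA, which signals through PDGFRA, went from 0.618 ± 0.199 to 4.7 ± 0.196 CPM (SD, n = 3; log2 fold change 2.90, edgeR adjusted p = 1.27e-10) in the comparison where its receptor fell. PDGFB, which activates either PDGF receptor, rose from 6.2 ± 0.306 CPM (0.95, adjusted p = 1.85e-10). FGF5 rose from 1.11 to 8.99 CPM (3.01, adjusted p = 4.5e-13), whereas FGF20 fell from 13.2 to 3.37 CPM (-1.96, adjusted p = 7.54e-14). FGF2, the most abundant FGF here at a mean of 255.2 CPM, was called slightly lower with TMM (-0.16, adjusted p = 0.00035) but stood at 0.01 with spike-ins. HBEGF, an EGFR ligand, averaged 28.77 CPM and PROS1, a TAM receptor ligand, 53.32 CPM over the 12 libraries. In GFP cells, dBRD9-A called 3 ligands higher and 2 lower with TMM, where 7.43% of all genes were called higher and 8.47% lower. With spike-ins it called 9 higher and 1 lower, where 70.4% of all genes were called higher and 1.44% lower. GAS6, the main AXL ligand, went from 4.02 ± 0.23 to 6.55 ± 0.398 CPM (0.71, edgeR adjusted p = 0.000226).

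Co-receptors hold growth factors at the cell surface, and 11 of 17 passed the filter. SMARCB1 in DMSO called 10 higher and 1 lower, under either scaling, with a median log2 fold change of 0.84, where 33.5% of all genes were called higher with TMM and 43.4% with spike-ins. As for the ligands, genes let through the filter by 1 group had to differ, and these counts describe the list only. NRP2, a neuropilin, went from 0.556 ± 0.155 to 50.2 ± 1.89 CPM (6.45, SE 0.09, edgeR adjusted p = 1.12e-19). The heparan sulphate proteoglycans GPC1 (1.52) and SDC2 (0.98) rose, and GPC3 fell (-0.43). In GFP cells with dBRD9-A, 1 was called higher and 3 lower with TMM, but 8 higher and 1 lower with spike-ins. Of all genes, 7.43% were called higher and 8.47% lower with TMM, and 70.4% and 1.44% with spike-ins.

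Among 48 other receptor tyrosine kinases, 26 passed the filter. SMARCB1 in DMSO called 12 higher and 9 lower, where 33.5% of all genes were called higher and 31.6% lower. Their median log2 fold change was 0.16. Regardless of sign the median size was 0.466, against 0.284 for all genes and 0.889 for the 10 receptors. EPHB2, an ephrin receptor, went from 0.259 to 3.87 CPM (3.93, edgeR adjusted p = 6.68e-12). The insulin receptor INSR (1.2) and IGF1R (0.89) rose, from 38.9 to 89.2 CPM and from 91.0 to 168 CPM. ERBB3, a partner of EGFR, fell from 10.7 to 2.6 CPM (-2.05, adjusted p = 5.67e-13), and EPHB3 fell as well (-1.06). In GFP cells dBRD9-A called 2 higher and 3 lower with TMM, where 7.43% of all genes were called higher and 8.47% lower. With spike-ins it called 15 higher and 0 lower, where 70.4% of all genes were called higher and 1.44% lower. TYRO3, a relative of AXL, rose from 62.5 to 83.4 CPM (0.42, edgeR adjusted p = 8.87e-08, and 0.78 with spike-ins). In SMARCB1 cells dBRD9-A called none of the 26 with TMM and 2 lower with spike-ins. Of all genes, 1.93% were called with TMM, and 5.3% were called lower with spike-ins.

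Of 27 adaptors and proximal signalling genes, 23 passed the filter, and SMARCB1 in DMSO called 10 higher and 5 lower, or 65.2%, beside 65% of all genes. SHC2 (1.36), GAB2 (0.83) and SRC (0.81) rose, and the docking protein GAB1 (-1.06) and the phospholipase PLCG2 (-0.87) fell. All 17 negative regulators passed, with 10 called higher and 6 lower, beside 33.5% and 31.6% of all genes. The receptor phosphatase PTPRJ rose (1.75, edgeR adjusted p = 1.79e-13), whereas LRIG1 (-0.84) and the EGFR inhibitor ERRFI1 (-0.83, from 423 to 238 CPM) fell. With TMM, dBRD9-A in GFP cells called 7.43% of all genes higher and 8.47% lower. It called 2 adaptors higher and 0 lower, and 2 regulators higher and 2 lower. Under spike-ins these were 19 and 0, and 14 and 0, in a comparison where that scaling called 70.4% of all genes higher.

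**Figure D5:**
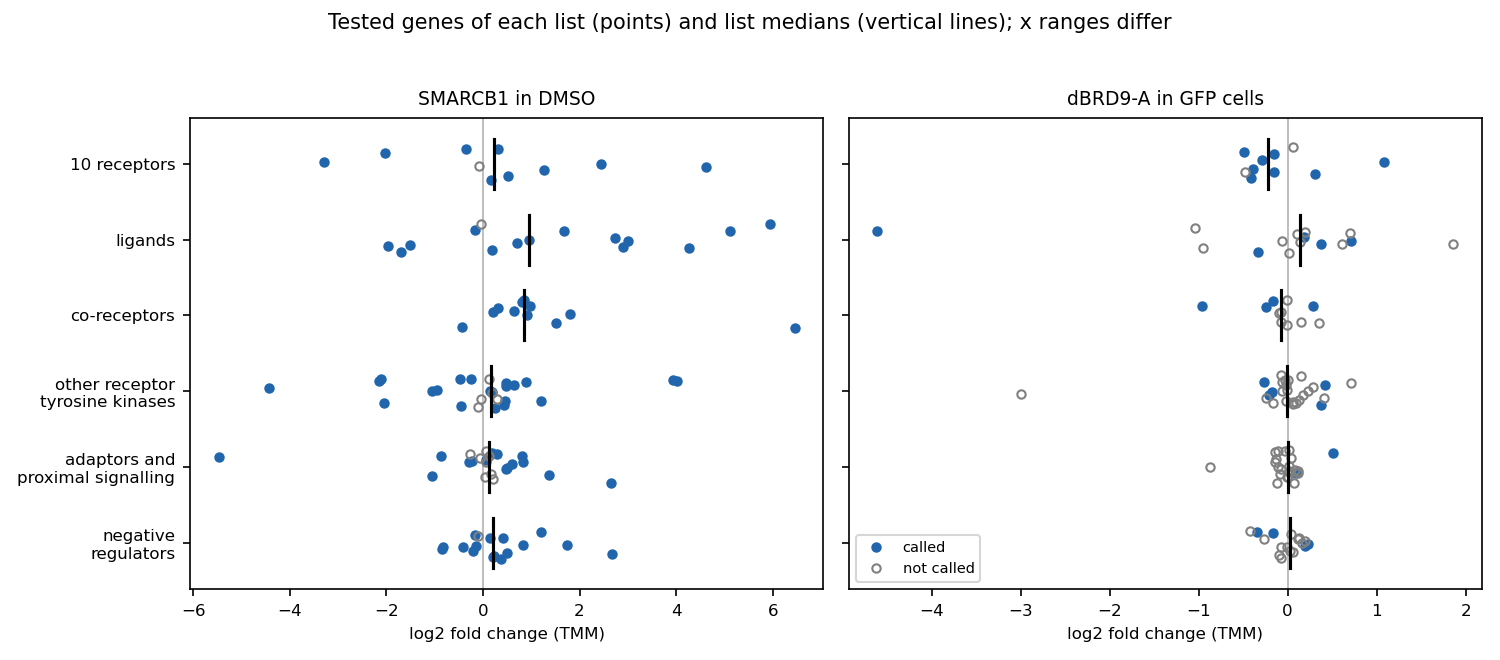
Log2 fold change (TMM) of every tested gene of the 10 receptors and 5 related lists for SMARCB1 in DMSO and for dBRD9-A in GFP cells (x ranges differ); filled points are called, open points are not, and vertical lines are list medians. With SMARCB1 the co-receptors lie to the right, with a median of 0.84, and the 10 receptors spread from -3.29 to 4.61; with dBRD9-A list medians lie between -0.22 and 0.14, and with spike-in scaling all of them lie above 0.

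The genes most like PDGFRA over the 12 libraries, by the root mean square (RMS) difference of centred log2 CPM among 12585 genes, were RBMS1 (0.0816), COL9A1 (0.119) and ADGRG1 (0.152), where PDGFRA's own RMS deviation from its mean was 1.69. RBMS1, an RNA-binding protein, averaged 220.8 CPM in GFP cells and 20.69 CPM in SMARCB1 cells, both in DMSO. PDGFRB (own deviation 0.226) was nearest to ZNF619 (0.0703), SORBS2 (0.0745) and MTUS1 (0.0799). FGFR1 (own deviation 0.294) was nearest to CKAP4 (0.0411), CITED2 (0.0415) and GNAZ (0.0519). These distances rank genes in the same 12 libraries and are descriptions.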

How the data were processed

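Gene expression in 12 libraries of G401 cells, 3 in each of 4 groups, was measured by RNA sequencing (Qiagen RNeasy Plus, TruSeq Stranded mRNA, per the labels' protocols). The authors deposited expected counts per gene, made with RSEM 1.3.1, whose estimates divide reads among the genes they map to. STAR, DESeq2 and GRCh37 (hg19) are also named, without roles, per the submitters' processing notes, and the annotation and the use of strand are not given in the sources used here. The 3 deposited tables held identical values for the 6 libraries that occur in more than 1. Groups were taken from the labels.

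Expected counts were rounded. The 40 spike-in identifiers (0.9634% to 1.302% of counts) entered neither library sizes nor tests. Symbols matched 51996 of 57820 identifiers. Genes passing filterByExpr with a minimum count of 10 were tested in R 4.3.3 with edgeR 4.0.16 (TMM, quasi-likelihood, 1 coefficient per group, all 12 libraries), with p-values adjusted over all 15750. Log2 fold changes carry standard errors derived from this test. On simulated counts for SMARCB1 in DMSO over 15750 genes with 200 changed, 74.6% of changes of 0.5, 83.6% of 1 and 97% of 2 (log2) were recovered, with 15 false calls. In the data this comparison called 65% of genes, far more than were changed in the simulation, so that these rates need not hold there. A count of 3 was the floor, 0.0513 to 0.0858 CPM. The floor and the counting intervals given for KIT cover counting error only, and reads lacking molecular identifiers can be copies of 1 molecule. The 95% intervals of log2 fold changes come from edgeR's test and include the spread between libraries. Gene lengths and overlaps came from GENCODE release 29, whose models may differ from those counted.

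The 10 receptors and the lists were chosen with earlier results of these data known. All 10 receptors are named. Genes of other lists were drawn, per comparison, from up to 3 rises and 3 falls of the largest size. These were called genes with a mean of at least 50 counts and groups that do not overlap. The most abundant ligand of each receptor family was added. GAS6 beside AXL in GFP cells follows this rule, and HGF and KITLG are such ligands. Not every gene that met the rule is given, above all in comparisons other than SMARCB1 in DMSO. Alternatives were DESeq2 size factors, spike-in scaling, DESeq2 1.42.0, no low-count filter, only the 2 groups compared, the replicate number as a block, and each library left out.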

Additional observations from a re-analysis of the deposited data

Results flagged for a closer look

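For 4 of the 10 receptors the dBRD9-A change was called as different between SMARCB1 and GFP cells by edgeR's test of the difference itself. That test called 3.8% of all genes, and 5.68% of genes with a mean of at least 500 counts. FGFR2 lost its call without 1 library, and AXL lost it without any single one of 7. The difference on the log2 scale was -0.96 for FGFR3, 0.31 for PDGFRB, 0.2 for FGFR2 and 0.21 for AXL. FGFR3 was higher with dBRD9-A in 3 of 3 GFP libraries than in any control library, and its SMARCB1 libraries overlapped. With spike-in scaling the difference of FGFR3 kept its sign, at -1.46, whereas those of PDGFRB, FGFR2 and AXL became -0.18, -0.29 and -0.29. That of PDGFRB was then not called, and those of FGFR2 and AXL were called lower.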

How the results depend on the processing

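Of 890 receptor results recomputed under another setting, 858 kept their side of the threshold and, but for 8 uncalled values that changed sign, their direction, 18 lost and 5 gained a call, and 9 that were called under either setting turned sign, all 9 with spike-in scaling. Most of the 858, 589 in number, came from fits that left 1 library out and so shared most of their data with the main fit. Those fits lost 10 calls and gained 1. Spike-ins called 4 receptors and 11310 genes for dBRD9-A in GFP cells, 873 genes for dBRD9-A in SMARCB1 cells, and 7 receptors and 11270 genes for the difference between them. They turned PDGFRA (0.20), FGFR1 (0.21), EGFR (0.07), FGF2 (0.03), DDR2 (0.18), PTK7 (0.15), EPHB3 (0.09), SDC2 (0.12), SDC4 (0.20), ERRFI1 (0.02) and SOCS5 (0.19) for dBRD9-A in GFP cells, FGF2 (0.01) for SMARCB1 in DMSO, FGFR3 (-0.03) for SMARCB1 with dBRD9-A, and PDGFRB (-0.18), FGFR1 (-0.39), FGFR2 (-0.29), EGFR (-0.32) and AXL (-0.29) for the difference. Genes called for dBRD9-A in SMARCB1 cells numbered 304, but 652 without the low-count filter and 156 with only the 2 groups compared, a fit with fewer samples. With each library left out they ranged from 171 to 423, the lowest without replicate 3 of SMARCB1 cells in DMSO, and receptors called for the difference ranged from 2, without replicate 1 of GFP cells in dBRD9-A, to 5. Apart from what the construction of a setting shows, the cause was not tested.

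Same-numbered libraries of different groups did not deviate together (correlations of -0.056 to 0.061 over 18 pairs, and -0.054 to 0.074 over 36 pairs of different numbers). Pairing by number was thus not seen, but correlations over all genes cannot exclude it. The library identifiers in the labels run by replicate number across the groups. With the replicate block, 3 receptors were called for the difference in place of 4, AXL standing at 0.21 (edgeR adjusted p = 0.0508), and receptor counts in the other comparisons were 9, 8, 3 and 10 as without it. Depth limits KIT and, in GFP cells, MET.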

Other observations

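GAS6 and TYRO3, a ligand and a receptor of the AXL group, were, like FGFR3, lowest in GFP cells in DMSO. These genes were chosen after their values were seen, and their adjusted p-values do not allow for that choice. The difference between the dBRD9-A changes was called for 1 of 15 tested ligands (6.67%) and 1 of 26 other receptor tyrosine kinases (3.85%). It was called for 3.8% of all genes. AXL itself was lower with dBRD9-A in GFP cells (-0.49), and its difference was 0.21 with TMM and -0.29 with spike-ins. Group means of PROS1, another ligand of the AXL group, ran only from 50.2 to 55.4 CPM. GAS6 stood at 4.02 ± 0.23 CPM in GFP cells in DMSO, 6.55 ± 0.398 in GFP cells in dBRD9-A, 6.59 ± 1.06 in SMARCB1 cells in DMSO and 6.0 ± 0.549 in SMARCB1 cells in dBRD9-A (SD, n = 3), with a log2 difference between the dBRD9-A changes of -0.83 (SE 0.15, edgeR adjusted p = 0.00356). TYRO3 stood at 62.5 ± 0.508, 83.4 ± 2.66, 73.9 ± 0.981 and 77.3 ± 2.93 CPM, with a difference of -0.35 (SE 0.05, adjusted p = 0.000177). With spike-ins these differences were -1.33 and -0.85.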
